A study of Mus musculus with 8 samples.

Results

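Keratins are the intermediate filament proteins of epithelial cells. A type I and a type II keratin pair to form a filament, and the pair changes with the cell's state: Krt8 with Krt18 in simple epithelia, Krt5 with Krt14 in basal keratinocytes, Krt1 with Krt10 once keratinocytes leave the basal layer, and Krt6 with Krt16 or Krt17 in wounded, hyperproliferative or tumour epidermis. The genes lie in 2 compact clusters, one for each type, hair keratins lie in both, and the type I cluster also holds a block of keratin-associated protein genes. The keratin genes were examined here by accessible chromatin, measured by ATAC-seq, in which Tn5 transposase cuts open DNA and the cut sites are sequenced. The set held every protein-coding gene whose symbol is Krt followed by a number, 53 of 21938 protein-coding genes on chromosomes 1 to 19, X and Y (GENCODE annotation of mm10). A gene was counted as called in a library when at least 1 peak overlapped its body or the 5 kb upstream of it.

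The 8 libraries came from 4 lines of mouse squamous cell carcinoma (SCC) cells, with 2 libraries each. The tumours were raised with DMBA and TPA in FVB mice carrying K14CreER and floxed FAK (genotype K14CreER FAKflox/flox), the labels name Ha-Ras as the driver gene, and FAK, focal adhesion kinase, was deleted in culture with 4-hydroxytamoxifen. The keratin 14 promoter drives the Cre in that genotype. FAK-/- cells carried the deletion alone. FAK-WT cells carried it with wild-type FAK put back by retrovirus, FAK-nls cells with a FAK defective in nuclear localization (R177A, R178A, R190A, R191A, R216A and R218A), and FAK-kd cells with a kinase-deficient FAK (K454R). All 3 constructs were introduced into the same FAK-/- clone, so each line derives from 1 clone. The study's methods give hygromycin selection for cells with a construct and mention none for FAK-/- cells. Its part in the comparisons with FAK-/- was not tested. The study calls the 2 libraries of a line biological replicates. The libraries held 53728 and 39056 peaks in FAK-WT, 43153 and 35256 in FAK-/-, 24402 and 24974 in FAK-nls, and 32961 and 45956 in FAK-kd. The files hold peaks and not counts, and the read totals that the study lists for its libraries were not used here. A gene without a peak was not shown to be closed.

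Defining markers of the labelled cell type were checked within 1 kb of any of their annotated start sites. Of the 6 epithelial markers, Itga6 was called in 8 libraries and Itgb4 in 1, while Trp63, Cdh1, Epcam and Perp were called in 0. Of the 5 fibroblast markers, Col1a1, Col1a2 and Pdgfra were called in 8, Col3a1 in 7 and Thy1 in 6. Between 1 and 2 epithelial markers and between 3 and 5 fibroblast markers were called in each library. None of the 4 leukocyte markers was called in any library, and Cdh5, Pecam1, Kdr and Tek, the endothelial markers, were called in 2, 1, 1 and 0. Of the melanocyte markers, Mitf and Pmel were called in 8 and Tyr and Dct in 0. These counts depend on where a marker was looked for. In the window used for keratins, gene body plus 5 kb upstream, Itga6 was called in 8 libraries, Trp63 and Itgb4 in 7, Cdh1 in 3 and Epcam and Perp in 0, while Col3a1 was called in 7 and the other fibroblast markers in 8. In the same window Ptprc was called in 7, Itgam in 6, Cd3e and Cd79a in 0, Tek in 8, Pecam1 in 6, Cdh5 in 4 and Kdr in 1, so markers of leukocytes and endothelium gained calls there as well. At the outer start of the gene alone, Col1a1 was called in 8, Col3a1 in 7 and Itgb4 in 1, and the other epithelial and fibroblast markers in 0. The cells are named below by their labels, and the part that these start-site patterns have in the keratin results was not tested.

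The sequences of 8 regions are shown, so that each can be placed against its gene in what follows. The regions of Krt79 and Krt13 were called in every library. The regions before Krt16, Krt86, Krt14 and Krt8 lie next to their start sites. The regions before Krt5 and Krt10 were called in FAK-WT libraries and in no other. Each sequence is GRCm38, 5′ to 3′ on the gene's strand: the central 300 bases of the region, the whole region for Krt14, and for Krt13 the 250 bases before an internal RefSeq start (RefSeq promoter table, GRCm38.p6), which lie inside the called region. Capitals mark matches to 5 motifs searched on both strands: AP-1 (TGANTCA), CRE (TGACGTCA), ETS (GGAAGT), the TATA box (TATAAA) and the p53-family decamer. They share no letters in the sequences below.
Krt79, chr15:101941939-101942238, minus strand: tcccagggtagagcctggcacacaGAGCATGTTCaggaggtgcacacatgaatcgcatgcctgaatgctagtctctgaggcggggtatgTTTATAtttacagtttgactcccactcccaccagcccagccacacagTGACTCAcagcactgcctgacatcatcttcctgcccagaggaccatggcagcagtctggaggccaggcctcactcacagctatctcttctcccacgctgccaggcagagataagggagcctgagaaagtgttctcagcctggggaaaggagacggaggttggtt
Krt13, chr11:100120578-100120827, minus strand: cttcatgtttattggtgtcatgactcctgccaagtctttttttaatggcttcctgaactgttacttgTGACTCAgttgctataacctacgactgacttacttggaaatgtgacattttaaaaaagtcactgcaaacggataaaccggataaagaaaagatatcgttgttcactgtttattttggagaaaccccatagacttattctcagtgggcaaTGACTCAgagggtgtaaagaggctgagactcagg
Krt16, chr11:100249049-100249348, minus strand: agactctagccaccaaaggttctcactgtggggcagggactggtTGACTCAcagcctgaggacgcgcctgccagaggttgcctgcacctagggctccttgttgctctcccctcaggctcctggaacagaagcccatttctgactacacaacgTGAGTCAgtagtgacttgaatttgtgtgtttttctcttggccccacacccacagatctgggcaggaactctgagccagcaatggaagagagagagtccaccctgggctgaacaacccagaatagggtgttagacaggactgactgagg
Krt86, chr15:101473069-101473368, plus strand: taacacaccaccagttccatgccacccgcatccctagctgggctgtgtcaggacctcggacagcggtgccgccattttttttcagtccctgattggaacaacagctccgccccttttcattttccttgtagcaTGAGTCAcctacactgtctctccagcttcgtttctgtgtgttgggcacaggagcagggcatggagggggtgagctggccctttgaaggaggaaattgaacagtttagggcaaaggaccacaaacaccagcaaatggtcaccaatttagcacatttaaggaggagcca
Krt8, chr15:102005159-102005458, minus strand: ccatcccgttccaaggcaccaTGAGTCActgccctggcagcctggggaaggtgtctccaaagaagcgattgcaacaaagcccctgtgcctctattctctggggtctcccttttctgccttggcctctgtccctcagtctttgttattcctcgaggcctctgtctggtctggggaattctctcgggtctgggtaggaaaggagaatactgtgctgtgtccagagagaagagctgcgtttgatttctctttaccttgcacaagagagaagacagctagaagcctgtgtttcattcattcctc
Krt14, chr11:100207602-100207837, minus strand: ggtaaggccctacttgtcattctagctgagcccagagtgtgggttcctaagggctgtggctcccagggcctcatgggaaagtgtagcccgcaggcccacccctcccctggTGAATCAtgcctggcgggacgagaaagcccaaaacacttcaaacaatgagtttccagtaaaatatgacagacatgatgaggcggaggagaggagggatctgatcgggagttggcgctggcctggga
Krt5, chr15:101715879-101716178, minus strand: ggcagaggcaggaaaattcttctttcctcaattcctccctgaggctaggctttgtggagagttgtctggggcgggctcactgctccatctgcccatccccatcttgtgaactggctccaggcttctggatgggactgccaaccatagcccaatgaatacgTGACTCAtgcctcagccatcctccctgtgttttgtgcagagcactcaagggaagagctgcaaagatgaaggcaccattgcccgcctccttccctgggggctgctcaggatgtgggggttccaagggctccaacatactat
Krt10, chr11:99391489-99391788, minus strand: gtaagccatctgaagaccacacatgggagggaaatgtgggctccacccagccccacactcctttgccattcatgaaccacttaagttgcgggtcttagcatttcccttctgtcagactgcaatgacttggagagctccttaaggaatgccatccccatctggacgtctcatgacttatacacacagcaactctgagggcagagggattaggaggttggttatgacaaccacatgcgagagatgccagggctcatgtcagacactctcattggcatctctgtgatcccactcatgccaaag

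These sequences were chosen by hand for their place beside the genes described below, so the number among them with a motif is no measure of the family. AP-1 letters stood at base 137 of the Krt79 run, bases 68 and 217 of Krt13, 45 and 153 of Krt16, 134 of Krt86, 22 of Krt8, 111 of Krt14 and 161 of Krt5. The Krt10 run held no match to any of the 5 motifs. Nor did the central 300 bases of the Krt13 region, and no AP-1 letters were found in those of the Krt7 and Krt80 regions, which are not printed. In Krt79 the capitals at base 25 mark the p53-family decamer and those at base 90 the TATA box letters on the opposite strand. Across all keratin regions the AP-1 letters were as common as elsewhere. They were found in the central 300 bases of 11 of 32 keratin regions (34.4%) and in 34.2% of all 69399 regions. The ETS letters were in 7 keratin regions (21.9%, against 20.3% of all), the TATA box in 5 (15.6%, against 13.8%), the p53-family decamer in 6 (18.8%, against 9.96%) and the CRE in 0 (0.719% of all). Promoters differed more in the TATA box. Of 37 RefSeq keratin promoters, from 36 genes, 17 (45.9%) held TATAAA in the 250 bases before the start, against 12.4% of 32851 promoters in the table. AP-1 letters were in 2 of those keratin promoters (5.41%, against 6.75%). A match is a description of letters and not evidence of binding.

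Keratin genes were called less often than other genes. At least 1 library had a call at 26 of 53 (49.1%), against 71.6% of all protein-coding genes. In all 8 libraries, 3 genes were called: Krt13, a type I keratin of the suprabasal layers of stratified mucosa, Krt79, a type II keratin of the hair canal and sebaceous duct, and Krt80, a widely distributed type II keratin. They made 5.66% of keratin genes, against 49.0% of all protein-coding genes. A further 27 keratin genes (50.9%) were called in 0 libraries, against 28.4% of all genes, and 23 were called in some. Keratin windows are short, with a median of 11594 bp against 22425 bp over all genes, so a window of equal size was also used. Within 1 kb of the gene's start, 2 keratin genes (Krt13 and Krt80) were called in all 8 libraries, against 37.3% of all genes, and 45 of 53 were called in 0, against 46.7%. In the map of calls, filled rows are scattered among empty ones along both clusters.

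**Figure D1:**
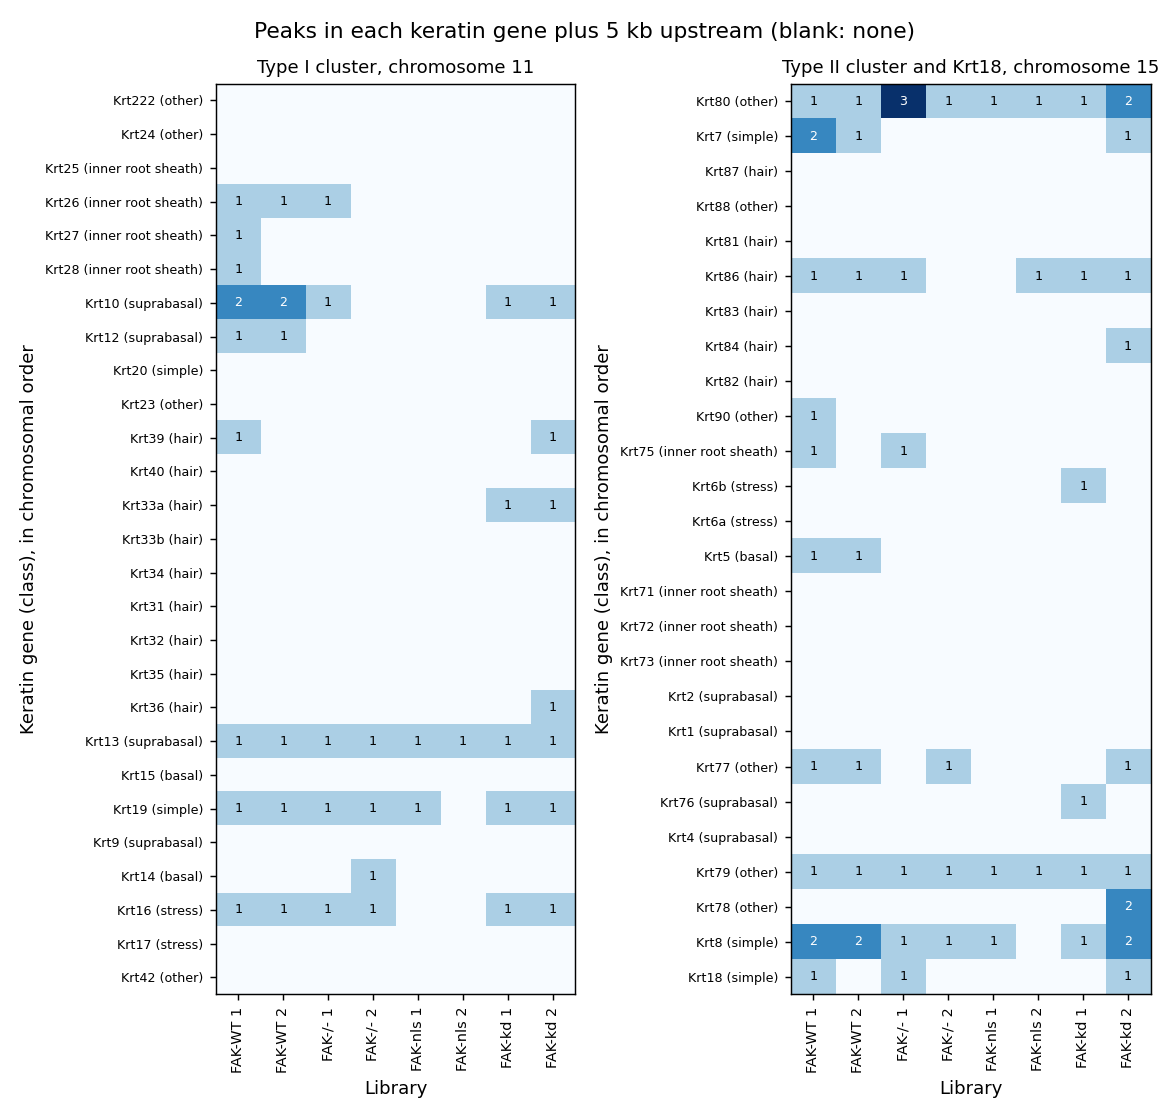
Number of peaks in each keratin gene plus 5 kb upstream (rows, in chromosomal order, with the class in brackets) in each of the 8 libraries (columns); blank cells had no peak. Krt13, Krt79 and Krt80 have a peak in every library, and 27 of the 53 rows are empty.

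The counts differed between libraries, and so did the length of the peak list, which was longest in the library with the most keratin genes called and shortest in FAK-nls. The order was not the same throughout: FAK-/- replicate 1 had more peaks than FAK-WT replicate 2 and fewer keratin genes called, and FAK-/- replicate 2 more peaks than FAK-kd replicate 1 and fewer keratin genes called. In FAK-WT, 19 and 13 keratin genes were called in replicates 1 and 2. In FAK-/- there were 11 and 8, in FAK-nls 5 and 4, and in FAK-kd 11 and 16. FAK-nls was the lowest line in both replicates, and its keratin counts overlapped those of no other line. FAK-WT and FAK-kd overlapped each other, as did FAK-/- and FAK-kd, and the means were 16.0 ± 4.24 for FAK-WT, 13.5 ± 3.54 for FAK-kd, 9.5 ± 2.12 for FAK-/- and 4.5 ± 0.707 for FAK-nls (SD, n = 2). All protein-coding genes were called at 66.8% and 62.3% in FAK-WT, 63.9% and 59.9% in FAK-/-, 53.5% and 53.8% in FAK-nls, and 58.9% and 64.6% in FAK-kd. In both libraries of a line, 13 keratin genes were called in FAK-WT (all genes, 61.3%), 9 in FAK-kd (57.8%), 6 in FAK-/- (58.4%) and 3 in FAK-nls (50.1%). With each library cut to its 24383 strongest peaks by −log10 p, the keratin counts were 7 and 5 in FAK-WT, 3 and 4 in FAK-/-, 5 and 4 in FAK-nls and 5 and 5 in FAK-kd, and the FAK-nls counts then lay within the range of the other lines. All protein-coding genes were then called at 49.8% and 52.1% in FAK-WT, 49.9% and 50.7% in FAK-/-, and 52.0% and 51.2% in FAK-kd. FAK-nls was highest there, at 53.5% and 53.2%.

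**Figure D2:**
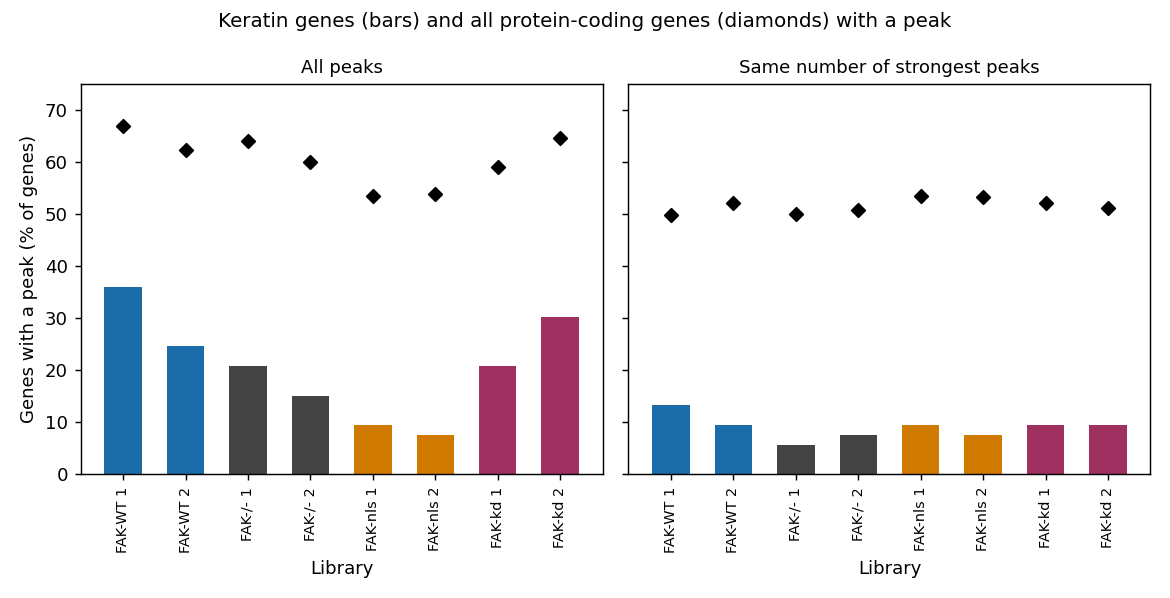
Share of the 53 keratin genes (bars) and of 21938 protein-coding genes (diamonds) with a peak in each library, in percent, with all peaks on the left and the 24383 strongest peaks of each library on the right. Keratin bars range from 4 genes in FAK-nls to 19 genes in FAK-WT on the left and from 3 to 7 genes on the right, always below the diamonds.

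Where keratin regions were called, most calls were among the weaker peaks of their library. Overlapping peaks of the 8 libraries were merged into 69399 regions, of which 32 lay in a keratin window, and these 32 gave 94 calls over the libraries. Ranked by −log10 p within its own library, the median keratin call stood at 68.1% of the list, where 0% is the strongest peak. Of the 94 calls, 70 were weaker than their library's middle peak, and 0 were among the strongest 10%. In FAK-nls replicate 2 the median keratin call stood at 43.2%, with 1 of 4 calls weaker than the middle peak, and in the other 7 libraries the median was between 61.0% and 82.0%. The strongest was Krt79 in FAK-WT replicate 2, at 13.1% of the list. Keratin regions were also less often shared. In all 8 libraries, 3 of 32 were called (9.38%), against 25.8% of all regions, and 13 (40.6%) were called in 1 library, against 28.6%. Of the 32, 13 were intergenic, 6 intronic and 13 over an exon, of which 8 were over coding sequence of a keratin.

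Of the 5 simple keratins, 4 (80.0%) were called in at least 1 library, near the 71.6% of all genes, and 0 in all 8. Krt8, the type II keratin of simple epithelia, was called in 7 libraries, through 2 regions upstream of its start. The nearer one (chr15:102004868-102005748, centred at -826 bp, in an intron of Gm36026) had −log10 p of 9.05 and 5.57 in FAK-WT, 5.40 in FAK-nls replicate 1, and 4.31 and 6.47 in FAK-kd, with no call in FAK-/-. The farther one (chr15:102006998-102007432, centred at -2733 bp) had 7.39 and 4.44 in FAK-WT, 4.26 and 4.85 in FAK-/- and 5.02 in FAK-kd replicate 2, with no call in FAK-nls. So both Krt8 regions were called in FAK-WT, and each was missing from another line. Krt18, the type I partner of Krt8, which lies beside it on chromosome 15, was called in 3 libraries. Its region at -4148 bp had −log10 p of 6.18 in FAK-WT replicate 1 and 5.57 in FAK-kd replicate 2, and its region over coding sequence at 1441 bp had 3.64 in FAK-/- replicate 1. In no line were both libraries called for Krt18, and its start was called in 0 libraries. Krt19, a type I keratin without a fixed partner, had an intronic region (chr11:100147524-100148183) called in 7 libraries. Its −log10 p was 10.4 and 4.72 in FAK-WT, 7.27 and 6.31 in FAK-/-, 5.15 in FAK-nls replicate 1, and 6.76 and 4.43 in FAK-kd. Within FAK-WT the replicates lay further apart than the FAK-/- pair. Krt7, the type II keratin of simple ducts, was called in 3 libraries and Krt20, an intestinal keratin, in 0.

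Of the 3 basal keratins Krt5, Krt14 and Krt15, 2 (66.7%, against 71.6% of all genes) were called in at least 1 library, and 0 in more than 2. Krt5 had 1 region, the intergenic one printed above (chr15:101715857-101716199, centred at -3130 bp), with −log10 p of 5.92 and 4.89 and fold enrichment of 4.25 and 3.44 in the FAK-WT libraries. These calls ranked at 65.3% and 74.6% of their lists. In the other 6 libraries the peak nearest the Krt5 start was 139511 and 160466 bp away in FAK-/-, 118614 and 229057 bp in FAK-nls and 35907 and 60024 bp in FAK-kd. In FAK-WT the nearest peak was this region itself, 2959 and 3030 bp away. The distances therefore restate where the region was called and are no separate comparison. Krt14, the partner of Krt5, was called in 1 library, FAK-/- replicate 2, by the 236-base region at -171 bp, with −log10 p of 4.45 and fold enrichment of 3.57. The other FAK-/- library had no peak within 8510 bp of the Krt14 start. Krt15, which marks basal and bulge cells, had no call, and its nearest peaks were 11596 to 15323 bp away.

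Of the 8 suprabasal keratins, 4 were called in 0 libraries, a higher share than the 28.4% of all genes. In all 8 libraries 1 was called (12.5%, against 49.0% of all genes), and 3 were called in some. Krt10, the type I keratin of differentiating epidermis, was called in 5 libraries. Its region over coding sequence (chr11:99385864-99386692) had −log10 p of 4.79 and 6.38 in FAK-WT, 4.49 in FAK-/- replicate 1, and 4.24 and 7.07 in FAK-kd, with no call in FAK-nls. Its upstream region (chr11:99391440-99391837, centred at -2274 bp) had 6.32 and 4.49 in FAK-WT, at 61.0% and 81.5% of the lists, and no call elsewhere. Krt1, the type II partner of Krt10, had no call, and its nearest peaks lay 18756 to 91161 bp away. Krt13 was called throughout. Its region (chr11:100120062-100120835), over an exon of a non-coding Krt13 transcript, had −log10 p of 12.7 and 7.51 in FAK-WT, 5.66 and 5.84 in FAK-/-, 5.03 and 4.16 in FAK-nls, and 4.76 and 10.9 in FAK-kd. Both FAK-WT values were above those of FAK-/- and FAK-nls, while FAK-kd replicate 2 lay between the FAK-WT values. These values are raw, and whole libraries differed too. The median −log10 p of all peaks was 7.48 and 6.52 in FAK-WT and 6.69 and 6.4 in FAK-/-. It was 5.95 and 6.17 in FAK-nls and 6.53 and 6.94 in FAK-kd. How many of all regions share the order seen at Krt13 was not counted. Krt12, the corneal type I keratin, had 1 upstream region (chr11:99424451-99424797, centred at -2365 bp, within an exon of A830036E02Rik), with 4.84 and 4.81 in FAK-WT and no call elsewhere. Krt76 was called in 1 library, and Krt9, Krt2 and Krt4 in 0.

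Of the 4 stress keratins, 2 were called in 0 libraries, a higher share than the 28.4% of all genes. The other 2 were called in some, and 0 in all 8, against 49.0% of all genes. Krt16 alone was called in more than 1 library. Its region next to the start (chr11:100248975-100249421, centred at -296 bp) had −log10 p of 9.64 and 4.74 in FAK-WT, 6.83 and 4.50 in FAK-/-, and 3.65 and 5.92 in FAK-kd, with no call in FAK-nls. The values of the 3 lines overlapped. Krt6b, a type II stress keratin, was called in FAK-kd replicate 1 (5.35) and nowhere else. Krt6a and Krt17 had no call, and the nearest peaks to Krt6a lay 17316 to 220844 bp away.

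Of 15 hair keratins, 10 (66.7%, against 28.4% of all genes) were called in 0 libraries and 5 in some. Krt86, a type II hair keratin, was called in 6 through the region before its start (chr15:101472974-101473463, centred at -260 bp), with −log10 p of 9.97 and 7.75 in FAK-WT, 5.04 in FAK-/- replicate 1, 6.81 in FAK-nls replicate 2, and 5.09 and 9.11 in FAK-kd. Krt33a, a type I hair keratin, was called in both FAK-kd libraries (chr11:100013726-100014080, −log10 p 3.41 and 4.34) and in no other. These ranked at 99.0% and 83.1% of the lists. Of 8 inner root sheath and companion layer keratins, 4 were called in at least 1 library, a lower share than the 71.6% of all genes. Each of the 4 was called in 3 libraries or fewer. Krt26 was called in 3 libraries by a region at -4380 bp (chr11:99341788-99342905), with 6.91 and 4.77 in FAK-WT and 3.74 in FAK-/- replicate 1. Krt77, a type II keratin of eccrine ducts, was called in 4 (chr15:101873291-101873658), with 6.92 and 4.55 in FAK-WT, 3.99 in FAK-/- replicate 2 and 4.58 in FAK-kd replicate 2. Of the 10 keratins outside the named classes, 5 were called in at least 1 library, again a lower share than the 71.6% of all genes. In all 8 libraries 2 of the 10 were called, against 49.0% of all genes. Krt79 had the strongest region of the family (chr15:101941751-101942425, centred at -1764 bp), with 14.3 and 11.9 in FAK-WT, 10.3 and 5.91 in FAK-/-, 3.98 and 6.35 in FAK-nls, and 6.90 and 11.7 in FAK-kd. Both FAK-WT values exceeded every other one, narrowly so for 11.9 against 11.7 in FAK-kd replicate 2. As at Krt13, the values are raw, and how many of all regions share this order was not counted. Krt80's region over its start (chr15:101368559-101370904), which also covers the start of Mir1941, had 9.61 and 6.54 in FAK-WT, 4.34 and 5.42 in FAK-/-, 5.29 and 7.06 in FAK-nls, and 7.39 and 5.93 in FAK-kd, and FAK-WT overlapped FAK-nls and FAK-kd.

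**Figure D3:**
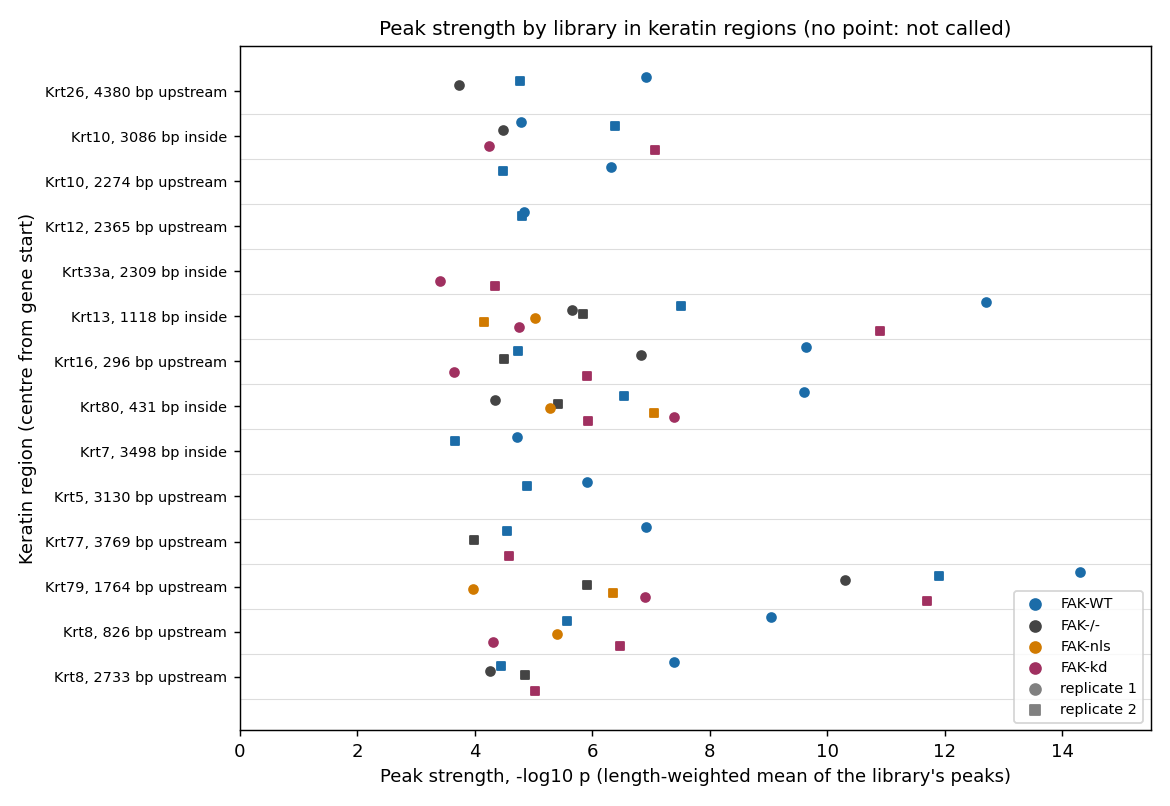
Peak strength (−log10 p, x axis) in each library for 14 keratin regions (y axis, with the distance of the centre from the gene start), coloured by line with circles for replicate 1 and squares for replicate 2. Krt79 and Krt13 in FAK-WT replicate 1 reach 14.3 and 12.7, and the Krt5, Krt7, Krt12 and upstream Krt10 regions have FAK-WT points alone.

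The clusters were similar to each other in the share of genes called. In the type I cluster (chr11:99232761-100269871, 27 keratin genes), 1 gene was called in all 8 libraries, 11 in some and 15 in none. In the type II cluster (chr15:101347444-102032027, 26 genes with Krt18), these counts were 2, 12 and 12. By type, with Krt18 among the 28 type I genes, type II genes called outnumbered type I genes in 4 libraries, equalled them in 2 and were fewer in 2, with 9 against 10 in FAK-WT replicate 1. Counting every region in the span, whether or not in a keratin window, there were 54.0 regions per Mb in the type II cluster and 33.7 in the type I cluster, against 25.5 over the chromosomes. Genes are also denser there, with 29 protein-coding genes in 685 kb (type II) and 68 in 1040 kb (type I), against 21938 in 2730000 kb. The densities of regions were not adjusted for this. Library by library, the type II cluster stood above the chromosomes throughout. The type I cluster did so except in FAK-nls, with 7.71 and 8.68 per Mb against 8.89 and 9.09. Regions called in all 8 libraries were 7 of 35 in the type I cluster and 7 of 37 in the type II cluster, against 25.8% of all regions. The type I cluster is interrupted by a block of keratin-associated protein genes, which encode the matrix between hair keratin filaments, and the block held 20.3 regions per Mb. Of 57 keratin-associated protein genes over the genome, 51 (89.5%) were called in 0 libraries and 1 (1.75%) in all 8, against 28.4% and 49.0% of all genes. Their windows are short, with a median of 5892 bp.

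In the window of gene body plus 5 kb upstream, genes that anchor keratins and genes of other intermediate filaments were called in all 8 libraries at about the share of all genes (49.0%). Of 13 desmosomal and plakin genes that anchor keratin filaments, 7 (53.8%) were called in all 8 libraries, 4 in some and 2 in none (15.4%, against 28.4% of all genes). Those in none were Dsp, which joins keratins to the desmosome, and Dsc3, a desmosomal cadherin of basal cells. Of 16 other intermediate filament genes, 9 (56.2%) were called in all 8 and 0 in none. They included Vim, the vimentin of mesenchymal cells, and Lmna and Lmnb1, which form the nuclear lamina. The anchor genes have long windows, with a median of 51131 bp, and within 1 kb of the start 2 of 13 were called in all 8 libraries, and 4 of 16 of the other filament genes, against 37.3% of all genes.

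The FAK lines were compared by regions called in both libraries of a line and in neither of another. Against FAK-/-, 5 keratin regions were called in FAK-WT alone (15.6%, against 4.89% of all regions) and 0 in FAK-/- alone (1.18% of all). In gene bodies alone, FAK-WT-only regions were 1 of 16 (6.25%, against 4.89%). The 5 were before Krt10, Krt12, Krt5 and Krt8 and in Krt7. Against FAK-nls, 9 were called in FAK-WT alone (28.1%, against 15.3%) and 0 in FAK-nls alone (0.248%). That order turned at −log10 q of at least 3 (2 of 17 keratin regions, 11.8%, against 19.7%) and in gene bodies alone (2 of 16, 12.5%, against 15.3%). It also turned with the 24383 strongest peaks (0 of 9, against 4.91%). The 9 were the upstream and the coding region of Krt10, the regions before Krt12, Krt5, Krt26, Krt16 and Krt77, the farther Krt8 region and the one in Krt7. Against FAK-kd, 5 were called in FAK-WT alone (15.6%, against 4.33%) and 1, in Krt33a, in FAK-kd alone (0.83%). In gene bodies alone, FAK-WT-only regions were 1 of 16 (6.25%, against 4.33%). The 5 were before Krt26, Krt10, Krt12 and Krt5 and in Krt7. Regions before Krt10, Krt12 and Krt5 and in Krt7, 4 in all, had a peak in each FAK-WT library and in 0 of the other 6 (12.5%, against 1.99%). The Krt7 region (chr15:101414156-101414926, over coding sequence) had −log10 p of 4.72 and 3.67. The comparisons share the FAK-WT libraries. Stricter settings leave few keratin regions to count, 17 at −log10 q of at least 3, 16 in gene bodies alone and 9 with the 24383 strongest peaks, so that 1 region moves a share by several percent. The order also turned against FAK-kd and against the other 6 libraries, at 0 of 17 (4.73% and 2.24% of all regions) and 0 of 9 (3.1% and 0.829%). On so few regions, neither these turns nor those against FAK-nls set keratin regions above or below all regions. All 4 regions rest on calls ranked between 61.0% and 95.0% of their lists, and with the 24383 strongest peaks of each library 0 of the 4 was left. In that setting 1 keratin region of 9 was in FAK-WT and not in FAK-/- (11.1%, against 3.44% of all regions), that of Krt86. There, 0 separated FAK-WT from FAK-nls or FAK-kd in either direction. Of all regions, 4.91% were in FAK-WT and not in FAK-nls and 4.23% the reverse, and for FAK-kd these were 3.1% and 2.64%.

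**Figure D4:**
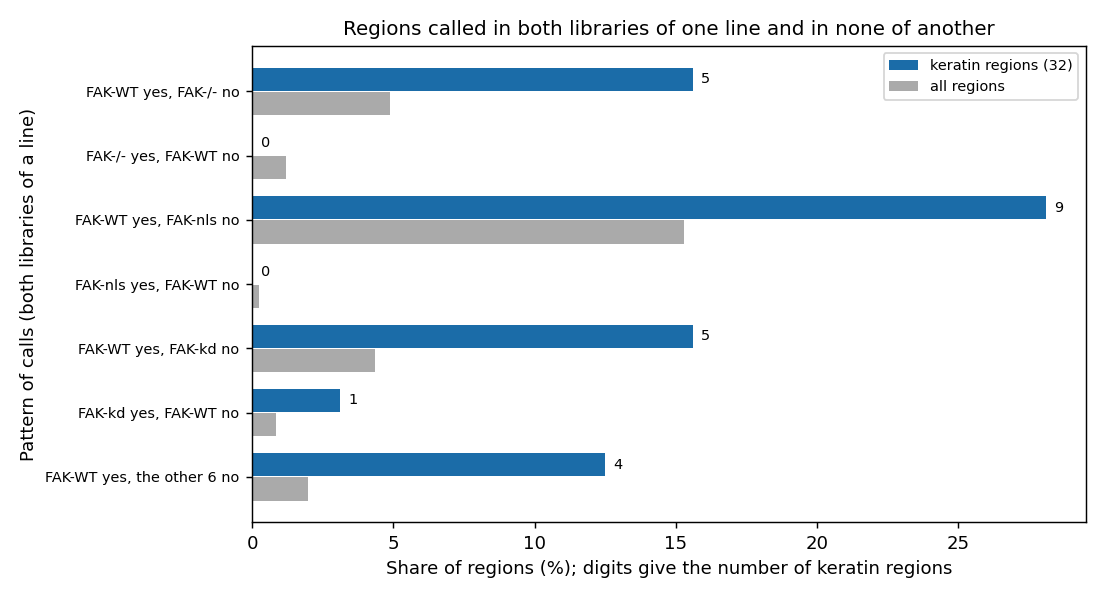
Share of the 32 keratin regions (blue, with their number) and of all 69399 regions (grey) called in both libraries of one line and in neither library of another (x axis, percent). The FAK-WT-only bars hold 5, 9, 5 and 4 keratin regions and the reverse bars 0, 0 and 1.

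Accessibility of the 3 keratin regions called in every library was compared as a level. Fold enrichment was quantile normalised on the log2 scale over 17917 regions called in all 8 libraries and tested with limma, and p-values were adjusted by Benjamini-Hochberg over all of them. Normalised log2 fold enrichment at Krt79 was 2.47 and 2.38 in FAK-WT, 2.18 and 1.94 in FAK-/-, 1.64 and 2.1 in FAK-nls, and 2.02 and 2.31 in FAK-kd. FAK-WT was above every other library. The log2 difference, FAK-WT minus the other line, was 0.36 ± 0.17 (SE) for FAK-/- (limma adjusted p = 0.786), 0.55 ± 0.17 for FAK-nls (adjusted p = 0.159) and 0.26 ± 0.17 for FAK-kd (adjusted p = 0.999). At Krt13 it was 2.42 and 2.26 in FAK-WT, 1.97 and 2.11 in FAK-/-, 2.11 and 1.80 in FAK-nls, and 1.86 and 2.39 in FAK-kd, so that FAK-kd replicate 2 lay between the FAK-WT values. The differences at Krt13 were 0.30 ± 0.17 for FAK-/- (limma adjusted p = 0.855), 0.38 ± 0.17 for FAK-nls (adjusted p = 0.309) and 0.22 ± 0.17 for FAK-kd (adjusted p = 0.999). At Krt80 it was 1.86 and 1.71 in FAK-WT, 1.51 and 1.74 in FAK-/-, 1.78 and 2.11 in FAK-nls, and 1.82 and 1.64 in FAK-kd. The differences at Krt80 were 0.16 ± 0.15 for FAK-/- (limma adjusted p = 0.966), -0.16 ± 0.15 for FAK-nls (adjusted p = 0.653) and 0.05 ± 0.15 for FAK-kd (adjusted p = 0.999). On mean pileup the Krt79 differences were 0.17, 0.22 and 0.15, and the Krt13 difference for FAK-kd was 0.06. Leaving out each library in turn moved the Krt79 difference for FAK-nls between 0.32 and 0.80 and that of Krt80 between -0.35 and -0.00. The Krt13 difference for FAK-nls ranged from 0.23 to 0.55 and the Krt79 difference for FAK-kd from 0.12 to 0.39. For FAK-/-, Krt79 ranged from 0.24 to 0.47 and Krt80 from 0.04 to 0.27. None of the 9 keratin differences passed the threshold of 0.05. Few regions of any kind did: 1 of 17917 against FAK-/- (0.00558%), 0 against FAK-nls (0%) and 2 against FAK-kd (0.0112%), with 1134, 2754 and 974 regions at an unadjusted p under 0.05. On mean pileup in place of fold enrichment these counts were 35, 215 and 18, with no keratin region among them. In each fit without 1 library, the line cut to 1 library took its spread from the other lines.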

How the data were processed

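Accessible chromatin was profiled by ATAC-seq in 8 libraries. Per the labels and the study's methods, the authors aligned reads to mm10 and called broad peaks in each library with MACS2 2.1.1 at q 0.05, with reads shifted and extended around the Tn5 cut. Duplicate handling is not given in the sources used here. The deposited values are a pileup signal, −log10 p and −log10 q, and a fold enrichment ratio per peak. Each list reached down to −log10 q of about 1.00, the weaker limit of broad calling.

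Peaks off the assembled nuclear chromosomes, 15 to 25 per library, were left out. Peaks overlapping by 1 bp were merged across libraries, and keratin windows were gene bodies (GENCODE M21) plus 5 kb upstream. Presence was counted without a test and set beside all genes or regions. Levels in regions called everywhere were tested with limma 3.58.1 (R 4.3.3) over all libraries, with line as the factor. Of these steps, the merging of peaks, the marking of regions as called and the limma fit were tested on simulated data. Named genes were Krt5, Krt14, Krt8, Krt18, Krt6a, Krt1 and Krt10, every gene with a region called in both libraries of one line and neither of the other, and every gene passing limma. Others, among them Krt13, Krt19, Krt79, Krt80 and Krt86, are described by class, and were singled out after their values were seen. The members, classes and marker lists were chosen with earlier results of these data known. At most 0.0361% of peaks had the same coordinates in any 2 libraries, and all libraries were kept as separate samples.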

Additional observations from a re-analysis of the deposited data

How the results depend on the processing

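Keratin counts depended on the peak threshold and the window. Genes called in every library (3) came to 0 at −log10 q of at least 3, 1 with the 24383 strongest peaks per library, 1 in gene bodies alone, 6 with 10 kb upstream and 0 where peaks had to cover at least 50% of a region. The share of all genes called in every library (49.0%) moved too, in that order to 32.0%, 40.2%, 45.2%, 51.5% and 27.0%. Genes without a call (27) came to 44 with the strongest peaks, and the share of all genes without a call went from 28.4% to 38.2%. Genes called in both libraries came, at −log10 q of at least 3, to 6 for FAK-WT, 0 for FAK-nls, 3 for FAK-/- and 2 for FAK-kd (all genes, 53.1%, 33.7%, 47.4% and 48.2%). With the strongest peaks, in that order, they came to 4, 3, 2 and 3 (47.0%, 49.8%, 46.5% and 47.9%). In gene bodies they came to 5, 1, 2 and 4 (57.9%, 46.6%, 55.1% and 54.6%). With 10 kb they came to 6 in FAK-nls (52.7%). With 50% cover they came to 4 in FAK-kd, 2 in FAK-/- and 1 in FAK-nls (48.0%, 48.4% and 29.5%). At −log10 q of at least 3, regions in FAK-WT alone came to 3 against FAK-/-, 2 against FAK-nls, 0 against FAK-kd and 0 against all. The shares of all regions there were 5.77%, 19.7%, 4.73% and 2.24%. With the strongest peaks the counts were 1, 0, 0 and 0, against 3.44%, 4.91%, 3.1% and 0.829% of all regions. In gene bodies they were 1, 2, 1 and 1 (6.25%, 12.5%, 6.25% and 6.25%), against 4.89%, 15.3%, 4.33% and 1.99%. These settings left 17, 9 and 16 keratin regions. The FAK-kd-only region went to 0 at both stricter thresholds, and 10 kb upstream gave 1 FAK-/--only region. Leaving out each library in turn gave 3 to 5 genes called throughout and 27 to 30 without a call; called in both libraries, 13 to 19 for FAK-WT, 6 to 11 for FAK-/-, 3 to 5 for FAK-nls and 9 to 16 for FAK-kd; FAK-WT-only regions, 5 to 11 against FAK-/-, 9 to 15 against FAK-nls, 5 to 8 against FAK-kd and 4 to 7 against all; and the reverse, 0 to 3, 0 and 1 to 5. The top of each FAK-WT range came without FAK-WT replicate 2, where replicate 1 alone sets the call. The shares of all regions in FAK-WT alone rose there too, in each comparison. They came to 38.6% against FAK-nls, 18.6% against FAK-kd and 12.6% against all. The keratin share was 46.9% against FAK-nls and 21.9% against all. With every library kept, the shares against all were 12.5% for keratin regions and 1.99% for all regions.

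Regions passing limma (1, 0 and 2 against FAK-/-, FAK-nls and FAK-kd) came to 5 against FAK-/- with median centring, to 35, 215 and 18 on pileup, and to 0 against FAK-/- and 0 against FAK-kd at −log10 q of at least 3. Leaving out libraries gave 0 to 1, 0 to 2 and 0 to 5. With the replicate number as a block, the paired fit gave 1, 0 and 2; deviations of same-numbered libraries correlated from -0.204 to 0.0556, so the numbers were not read as pairs. Krt13, Krt79 and Krt80 passed in 0 of 99 alternative fits (adjusted p 0.0985 to 1.00), nor did Krt19 in the 3 that held it, those without FAK-nls replicate 2. The Krt80 difference for FAK-kd turned to -0.04 on pileup and ranged from -0.04 to 0.14 without 1 library (below 0 without FAK-WT replicate 1 or FAK-kd replicate 2), and the Krt13 one from -0.05, without FAK-kd replicate 1, to 0.48. The causes were not tested. No keratin region had −log10 q of at least 3 in every library, so the levels could not be fitted there. The files hold no read counts, so they do not show whether a keratin gene without a peak was closed or too thinly covered.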
